A study of Mus musculus with 7 samples.

Results

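Expression of 50 mouse genes of the complement and coagulation systems was compared across liver, kidney, 3 fat depots, skeletal muscle and cortex. The depots were visceral (VAT), subcutaneous (SCAT) and brown (BAT) adipose tissue. The genes were chosen by name, 25 for complement and 25 for coagulation, and every one of the 50 names was found among the 50354 gene names of the deposited table. Of these, 48 could be analysed. C2 and Cfb share 1 merged locus, which the authors' comparison program marked as failed in the 6 comparisons with SCAT, so both were left out of all counts.

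Complement is a chain of plasma proteases and binding proteins that tags and lyses targets. C1q or mannose-binding lectins start it, C3 is its hub, and C5 to C9 build the membrane attack complex. Coagulation is a second protease chain, in which thrombin turns fibrinogen into fibrin, factor XIII crosslinks the fibrin and plasmin dissolves it. Hepatocytes are the textbook source of most of these plasma proteins, whereas C1q is made by macrophages and von Willebrand factor by endothelial cells and platelet precursors.

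All samples came from mice labelled C57BL/6 (C57BL/6N in the study's methods) and wild type, 36 weeks old and fed a normal control diet (NCD). Total RNA was depleted of ribosomal RNA and sequenced as strand-specific paired-end libraries. Each tissue had 1 library, so no difference between tissues has a replicate check, and no test was made. The labels do not say whether the tissues came from 1 animal or several.

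Expression is given as FPKM, fragments scaled by transcript length and library size, as the authors deposited it. Enrichment in a tissue meant at least 1 FPKM there and a log2(FPKM + 0.1) at least 2, that is 4-fold, above each of the other 6 tissues. The pseudocount of 0.1 understates differences between low values. The table holds no fragment counts, so the depth behind a value is unknown. Among loci with low values in every tissue, the most common log2 ratio to the liver value ran from -1.43 in SCAT to 1.31 in muscle, so small FPKMs do not stand for the same number of fragments in every library. Over 7844 genes, the median log2 level of the libraries relative to their common mean was -0.52 (SCAT), -0.42 (VAT), -0.20 (cortex), 0.05 (kidney), 0.09 (liver), 0.29 (BAT) and 0.39 (muscle). Median-ratio scaling removes these offsets, which raises SCAT, VAT and cortex and lowers the others, so an order of tissues that differ by no more than this depends on the scaling.

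The tissue labels were checked against marker genes. Markers of kidney tubule, neurons, brown adipocytes and skeletal muscle fibres each had their highest sum in the labelled tissue, although Acta1 was not found, and adipocyte markers were highest in the 3 fat depots. Markers of other cell types were also detected. In VAT, 4 of 6 epididymis markers had at least 1 FPKM, with a sum of 2645 (Lcn9 and Cst11 were listed at 0), against sums of 0 to 1.99 elsewhere. All 10 hepatocyte markers reached 1 FPKM in VAT. In SCAT, 6 of 6 lymphocyte markers (sum 141 FPKM, at most 4.91 elsewhere) and 6 of 6 pancreatic acinar markers (sum 117, at most 9.21 elsewhere) reached 1 FPKM. In BAT, skeletal muscle fibre markers summed to 602 FPKM, against 19580 in muscle, where Myh4 and Ttn are missing from the sum. The muscle library in turn had 6 of 6 adipocyte markers at 1 FPKM or more (sum 166.5, against 599 to 2085 in the fat depots). In bulk tissue, fewer cells of a type and less RNA per cell cannot be told apart. Some members have close paralogs in the mouse genome (C4a for C4b, C1rb for C1ra, C1s2 for C1s1, Kng2 for Kng1, Cd55b for Cd55 and Cd59b for Cd59a), and how fragments shared by such copies were divided is not given in the sources used here, so the levels of these genes are uncertain.

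**Figure D1:**
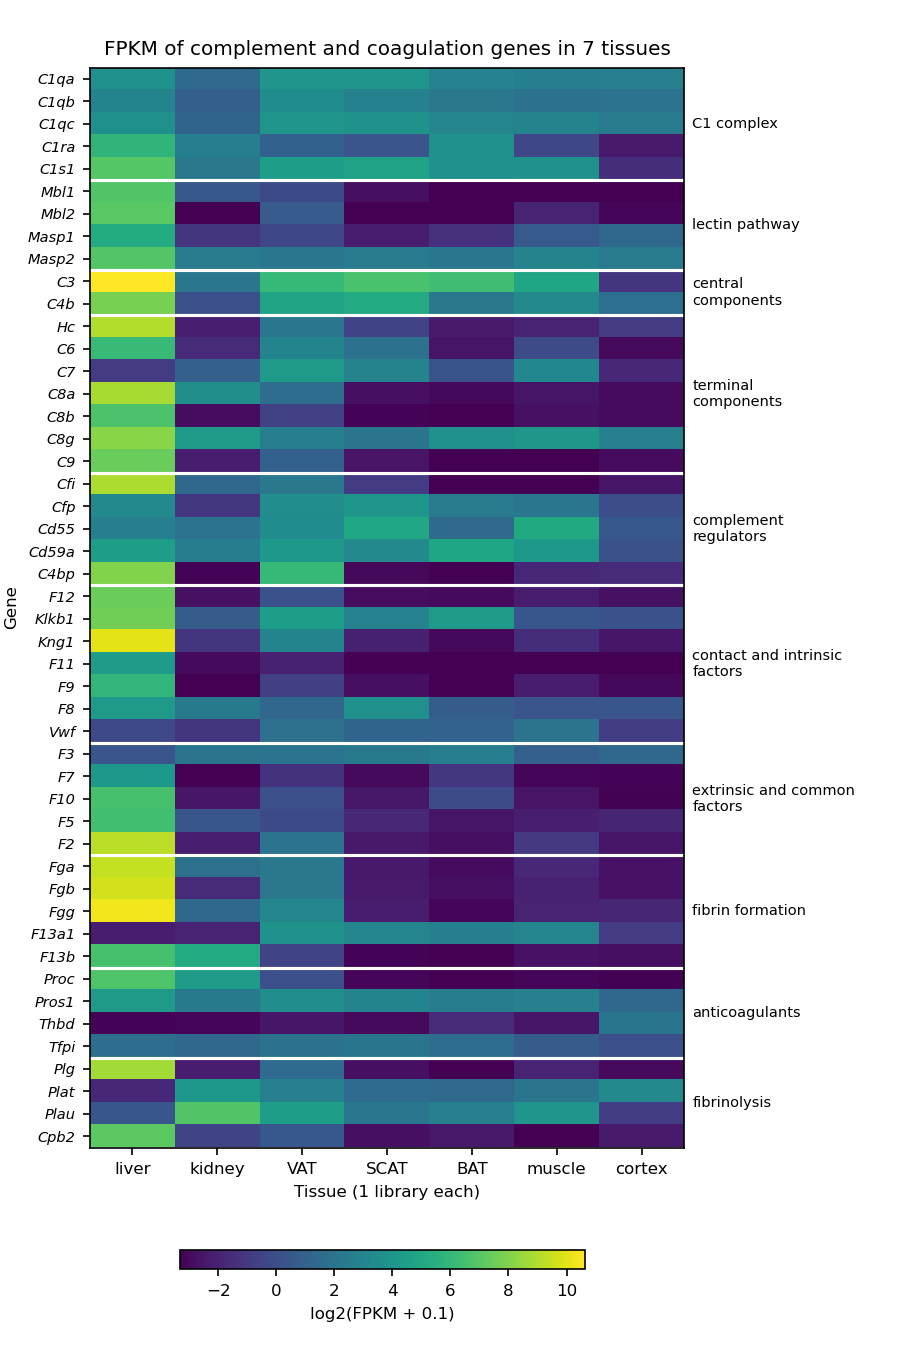
Expression of the 48 analysed members (rows, grouped by role) in 7 tissues (columns, 1 library each), as log2(FPKM + 0.1) in colour. Most rows are bright in liver alone, while C1q, C7, Cd55, Cd59a, F13a1, Plau and Plat are spread over other tissues.

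Most members of both systems were highest in liver. Of the 48 members, 34 had their highest FPKM in liver and 30 were enriched there, against 3.39% of 14928 protein-coding genes that reached 1 FPKM somewhere. The 30 were 15 of 23 complement members and 15 of 25 coagulation members. Their median liver level was 156 FPKM, from 17.1 for F7 to 1593 for C3, and their median log2 distance to the next tissue was 6.40. Over all 506 liver-enriched protein-coding genes these medians were 61.5 FPKM and 3.86. C1ra lay just inside the rule (log2 difference 2.01) and C4bp just outside it (1.96).

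Only 2 members were enriched in another tissue, Plau in kidney and Thbd in cortex, against 18.0% of the 14928 genes, and for kidney alone 2.49%. The call for Plau was lost under median-ratio scaling and with the fold doubled, and that for Thbd with a minimum of 5 FPKM. None of the 48 was at least 2-fold higher in all 3 fat depots than in the 4 other tissues, a rule met by 0.402% of the 14928 genes. The other 16 were enriched nowhere. Among them, C4bp, F8, F13b and Pros1 still had their highest value in liver.

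Members with at least 1 FPKM were most numerous in liver, then VAT, and fewest in cortex. There were 43 in liver, where 49.5% of 21341 protein-coding names passed, 26 in kidney (background 51.8%) and 37 in VAT (52.3%). SCAT had 23 (50%), BAT 22 (50.3%), muscle 22 (50.9%) and cortex 14 (52.6%). All 48 members reached 1 FPKM in some tissue, but only 14928 of the 21341 names did, so these background shares are low for a comparison. Of the 14928 names, 10570 passed in liver, 11059 in kidney, 11152 in VAT and 10666 in SCAT. BAT had 10741 of them, muscle 10873 and cortex 11215. The excess of VAT over SCAT came from the liver-enriched members, of which 21 of 30 reached 1 FPKM in VAT and 8 in SCAT. The remaining 18 members differed little, with 16 in VAT and 15 in SCAT.

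In fibrin formation, the 3 fibrinogen chains were enriched in liver and both subunits of factor XIII were not. Fibrinogen is built from an alpha, a beta and a gamma chain, encoded by Fga, Fgb and Fgg, which lie within a short stretch of chromosome 3. Fga had 684 FPKM in liver, 3.50 in kidney, 4.73 in VAT, 0.0908 in SCAT, 0.0336 in BAT, 0.192 in muscle and 0.0629 in cortex. Fgb had 808 in liver, 0.222 in kidney, 4.52 in VAT, 0.101 in SCAT, 0.0412 in BAT, 0.140 in muscle and 0.0614 in cortex. Fgg had 1283, 2.46, 8.45, 0.113, 0.0203, 0.159 and 0.187 FPKM in the same tissues. All 3 chains were within a small factor of each other in liver, with Fga at 0.847 and Fgg at 1.59 of Fgb. The ratios were alike in VAT (1.05 and 1.87) but not in kidney, where Fga was 15.7 and Fgg 11.1 times Fgb.

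The 250 bases before the RefSeq start (GRCm38.p6) of the 3 fibrinogen genes are shown because these genes had some of the highest liver levels of all members, with capitals for matches to 4 letter patterns known for liver factors and to the TATA box.
Fga (chr3:83025903-83026152, plus strand): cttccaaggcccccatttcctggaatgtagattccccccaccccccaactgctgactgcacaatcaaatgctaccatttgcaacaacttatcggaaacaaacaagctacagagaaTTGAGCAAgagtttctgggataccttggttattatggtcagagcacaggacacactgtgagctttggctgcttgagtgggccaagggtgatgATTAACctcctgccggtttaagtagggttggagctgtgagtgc
Fgb (chr3:83049864-83050113, minus strand): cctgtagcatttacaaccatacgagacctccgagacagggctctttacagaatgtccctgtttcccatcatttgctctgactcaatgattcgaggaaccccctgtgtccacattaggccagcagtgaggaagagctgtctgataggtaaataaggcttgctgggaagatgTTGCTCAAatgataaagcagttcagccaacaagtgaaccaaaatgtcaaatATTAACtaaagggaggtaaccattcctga
Fgg (chr3:83007474-83007723, plus strand): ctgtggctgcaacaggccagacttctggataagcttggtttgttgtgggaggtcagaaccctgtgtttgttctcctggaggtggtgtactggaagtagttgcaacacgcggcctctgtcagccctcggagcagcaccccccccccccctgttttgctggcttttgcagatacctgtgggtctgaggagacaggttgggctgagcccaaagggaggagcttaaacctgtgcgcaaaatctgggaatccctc
The patterns, searched on both strands, were GTTAAT (one arm of the HNF1 palindrome), CAAAGTCC (core of HNF4), TTGCGCAA and TTGCNNAA (C/EBP, the second containing the first) and TATAAA. Fga and Fgb each held 1 GTTAAT and 1 TTGCNNAA match, the former 43 and 29 bases before the start. Fgg held no match in this window.

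Promoters were found in the RefSeq table for 37 of the 50 members, and for 24 of the 30 enriched in liver, with 26 windows. GTTAAT occurred in 6 of the 26 windows (23.1%; C1ra, C8a, C8b, Fga, Fgb, Hc) and in 4 of 15 windows of the other analysed members (26.7%; C4bp, C7, Cfp, F13b), against 6.43% of 32851 windows of all genes. TTGCNNAA occurred in 8 of 26 windows (30.8%; C1s1, C3, C9, F11, F9, Fga, Fgb, Klkb1), in 0 of 15 and in 9.56% of all. TATAAA was in 2 of 26 (7.69%; Hc and Klkb1), in 2 of 15 (13.3%; C7 and Tfpi) and in 12.4% of all. CAAAGTCC and TTGCGCAA were in none of the members' windows and in 1.2% and 0.164% of all. These are matches of letters, and binding was not measured.

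The 2 subunits of factor XIII, the enzyme that crosslinks fibrin, had different sources. F13a1, the catalytic subunit, had 0.118 FPKM in liver, 0.159 in kidney, 14.2 in VAT, 8.11 in SCAT, 6.51 in BAT, 8.06 in muscle and 0.445 in cortex. F13b, the carrier subunit, had 95.9 in liver, 36.4 in kidney, 0.638 in VAT, 0.0105 in SCAT, 0 in BAT, 0.0576 in muscle and 0.0453 in cortex. F13a1 was thus lowest in liver and kidney, where F13b was highest, and both were low in cortex. Against the macrophage receptor gene Csf1r, F13a1 stood at 1.23 in VAT, 1.09 in BAT, 0.867 in muscle and 0.531 in SCAT but at 0.0078 in liver, where Csf1r itself had 15.1 FPKM. The platelet gene Pf4 was likewise highest in VAT (24.1), BAT (17.3), muscle (15.1) and SCAT (14.5) and at most 1.67 elsewhere. The other listed platelet markers did not share this pattern. Ppbp was higher in kidney (1.84) and liver (1.62) than in SCAT (1.35) and muscle (1.13). Itga2b was lowest in muscle (0.293) and higher in kidney (1.73) than in BAT (0.745), and Gp9 reached at most 0.839 FPKM. The part of macrophages or platelets in the F13a1 values was not tested.

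Thrombin and the factors before it were almost wholly hepatic. F2, which encodes prothrombin, had 580 FPKM in liver, 0.126 in kidney, 3.85 in VAT, 0.0919 in SCAT, 0.0420 in BAT, 0.396 in muscle and 0.0712 in cortex. F10 (94.7 FPKM in liver), F5 (86.0) and F7 (17.1) were also enriched in liver and did not exceed 1.24 FPKM in any other tissue. F3, tissue factor, which starts clotting at a wound, was the exception in this group. It had 1.17 in liver, 4.11 in kidney, 3.95 in VAT, 4.86 in SCAT, 6.20 in BAT, 1.88 in muscle and 2.52 in cortex, a span within which its order changed with scaling (SCAT was highest under median-ratio scaling).

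Of the contact and intrinsic factors, 5 of 7 were enriched in liver. Kng1, the kininogen from which bradykinin is cut, had the highest level of the group, with 1066 FPKM in liver, 0.353 in kidney, 7.67 in VAT, 0.132 in SCAT, 0.0227 in BAT, 0.252 in muscle and 0.0791 in cortex. F12 (182 in liver), F9 (57.6) and F11 (20.0) followed the same pattern and reached at most 1.04 elsewhere. Klkb1, plasma prekallikrein, had 192 FPKM in liver, 22.0 in VAT and 19.0 in BAT at a locus that also carries Cyp4v3 and Gm45753. At the locus named Klkb1 alone, on the other strand, it had 34.7 in liver and at most 0.388 elsewhere, so the fat values cannot be assigned to Klkb1.

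F8 and Vwf, the pair of proteins that circulate bound to each other, were not enriched anywhere. F8 had 18.5 FPKM in liver, 4.91 in kidney, 2.37 in VAT, 12.7 in SCAT, 1.66 in BAT, 1.19 in muscle and 1.22 in cortex. Its order of liver and SCAT turned under median-ratio scaling (17.4 and 18.2), and at the locus on the annotated strand the values were 10.3 and 6.46. The SCAT library was also the one with lymphocyte markers, and their part in this value was not tested. Vwf had 0.752 in liver, 0.334 in kidney, 3.41 in VAT, 2.19 in SCAT, 2.00 in BAT, 4.11 in muscle and 0.475 in cortex, with VAT above muscle after scaling. Relative to Cdh5, a junction gene of endothelial cells, Vwf ran from 0.120 in kidney to 0.447 in muscle over the 6 tissues with at least 1 FPKM of Cdh5.

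In the C1 complex, the recognition unit C1q was enriched in no tissue, and its proteases were highest in liver. The 3 chains of C1q, from neighbouring genes on chromosome 4, were detected in all 7 tissues. C1qa had 13 FPKM in liver, 2.74 in kidney, 15.5 in VAT, 16.1 in SCAT, 7.27 in BAT, 6.39 in muscle and 6.69 in cortex. C1qb had 7.78, 1.80, 10.8, 7.02, 4.77, 3.66 and 3.87 in the same order. C1qc had 12.9, 2.15, 15.2, 13.9, 8.09, 7.39 and 5.0. The 3 chains kept close proportions, since C1qc was 1.20 to 2.02 times C1qb over the 7 tissues. C1qa was 1.43 to 2.29 times C1qb, but at the locus on its annotated strand only 0.691 to 0.985 times, so which chain was highest depends on the locus. Kidney was lowest for each chain and for the macrophage marker sum (31.3 FPKM). Cortex had the next lowest sum (50.8, against 83.7 to 269 in the others). At the loci used, cortex stood above muscle for C1qa and C1qb and below it for C1qc. Of 6 microglia markers, 5 had at least 1 FPKM in cortex and 3 or 4 in each other tissue, and their sum was higher in kidney (115) and VAT (93.4) than in cortex (91.8).

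The windows before C1qb and C1qc are shown for comparison, as neighbouring genes that were detected in all 7 tissues, liver included.
C1qb (chr4:136886201-136886450, minus strand): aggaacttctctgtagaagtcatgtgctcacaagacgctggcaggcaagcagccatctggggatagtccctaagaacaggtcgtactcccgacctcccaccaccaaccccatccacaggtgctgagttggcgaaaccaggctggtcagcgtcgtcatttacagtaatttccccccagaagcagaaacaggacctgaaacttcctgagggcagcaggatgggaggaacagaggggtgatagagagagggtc
C1qc (chr4:136892915-136893164, minus strand): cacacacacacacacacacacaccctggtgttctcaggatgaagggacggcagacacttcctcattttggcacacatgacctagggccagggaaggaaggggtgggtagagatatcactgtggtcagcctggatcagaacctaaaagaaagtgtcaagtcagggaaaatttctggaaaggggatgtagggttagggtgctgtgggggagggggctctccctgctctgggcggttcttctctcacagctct
Neither holds any of the patterns, and C1qa is not in the table.

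Both C1 proteases were also detected outside liver. C1s1 had 124 FPKM in liver, 4.47 in kidney, 22.7 in VAT, 26.2 in SCAT, 12.9 in BAT, 13.5 in muscle and 0.249 in cortex. In fat and muscle it was thus of the order of C1q or above it, and its enrichment in liver (log2 difference 2.23) was lost under median-ratio scaling (1.63). A locus named Gm16567 lies over C1s1 on the other strand and had 151, 6.60, 35.4, 32.2, 13.2, 25 and 0.108 FPKM, above C1s1 in every tissue but cortex, and its part in the C1s1 values was not tested. C1ra had 56.0, 6.34, 1.92, 1.20, 13.8, 0.691 and 0.1 at a locus shared with C1rl on the strand opposite to its annotation. At the locus named C1ra alone, on the annotated strand, the values were 41.2, 1.93, 7.47, 8.69, 2.42, 3.66 and 0.217, in which SCAT and VAT followed liver, as for C1s1. The BAT value of C1ra therefore depends on the locus, while its enrichment in liver held at both loci but was lost with a pseudocount of 1 (log2 difference 1.95).

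All 4 members of the lectin pathway were enriched in liver. Mbl2, a mannose-binding lectin, was highest with 133 FPKM in liver, 0 in kidney, 1.49 in VAT, 0 in SCAT, 0 in BAT, 0.153 in muscle and 0.0172 in cortex. Mbl1 had 117 in liver and at most 1.29 elsewhere. Masp1, a protease bound to these lectins, had 38.1 in liver, 2.49 in cortex and 1.43 in muscle. Masp2 had 118 in liver and 4.43 to 7.34 elsewhere, at a locus that it shares with Srm, so its level outside liver cannot be assigned.

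C3 and C4b had the highest levels in VAT and SCAT among the members enriched in liver, and C3 also in BAT. C3 had 1593 FPKM in liver, 4.29 in kidney, 65.9 in VAT, 99.4 in SCAT, 80.9 in BAT, 29.6 in muscle and 0.329 in cortex. C4b, which encodes C4, had 219, 0.960, 28.7, 36.9, 4.71, 9.36 and 3.33 in the same tissues. SCAT held the second highest value of both, at 6.24% and 16.9% of liver, and C4b fell just under the enrichment rule after median-ratio scaling (log2 difference 1.96). C3 was thus well detected in all 3 depots, and C4b mainly in the white ones. The merged locus of C2 and Cfb, left out above, was listed at 591 FPKM in liver, 144 in kidney, 68.7 in VAT, 61.7 in SCAT, 7.12 in BAT, 7.34 in muscle and 0.648 in cortex, and the share of each gene is not known.

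Of the terminal components, 6 of 7 were enriched in liver. Hc, which encodes C5, was the highest of them at the loci used, with 513 FPKM in liver, 0.127 in kidney, 4.32 in VAT, 0.618 in SCAT, 0.102 in BAT, 0.163 in muscle and 0.467 in cortex. On its annotated strand it had 286 in liver, level with C8g (285), so its rank depends on the locus. C9 had 172 in liver and at most 1.92 elsewhere. C6 had 71.2 in liver, 7.80 in VAT and 3.58 in SCAT.

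C7 went against this group. It had 0.434 FPKM in liver, 1.81 in kidney, 17.8 in VAT, 7.47 in SCAT, 1.13 in BAT, 8.95 in muscle and 0.191 in cortex. Its lowest values were thus in cortex and liver. Its locus on the annotated strand gave 0.472, 1.70, 15.6, 7.26, 1.23, 9.09 and 0.107, so both strands give the same order of VAT, muscle and SCAT. Under median-ratio scaling VAT stayed highest (23.8), but SCAT (10.7) stood above muscle (6.85). The summed fibroblast markers were also highest in muscle, VAT and SCAT (441, 429 and 277 FPKM, against 20.0 to 143 elsewhere). Dcn made up most of these sums (260, 341 and 198). Dcn, Col1a1 and Col3a1 were each highest in these tissues. Lum and Pi16 were higher in BAT (13.7 and 2.88) than in SCAT (10.8 and 2.75), and Pdgfra was higher in kidney (5.93) than in SCAT (5.81). The part of fibroblast RNA in the C7 values was not tested.

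C8 is a trimer of alpha, beta and gamma chains. C8a had 445 FPKM in liver, 11.9 in kidney, 3.13 in VAT, 0.0485 in SCAT, 0.0220 in BAT, 0.0712 in muscle and 0.0352 in cortex. C8b had 107 in liver, 0.0383 in kidney, 0.567 in VAT, 0.00899 in SCAT, 0 in BAT, 0.0564 in muscle and 0.0343 in cortex. The C8a locus on the annotated strand had 182 in liver and 4.98 in kidney. C8g had 285, 18.6, 6.12, 4.07, 12.8, 16.9 and 6.71 in the same tissues. As with fibrinogen, kidney held transcripts of part of the complex, with C8a but hardly any C8b. Fbxw5 overlaps C8g on the other strand and had 7.19 to 36.9 FPKM over the tissues, and its part in the C8g values was not tested.

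The 5 complement regulators include plasma and cell-bound proteins, and Cfi alone of them was enriched in liver. Cfi, the protease that inactivates C3b and C4b, was enriched in liver with 477 FPKM, 2.49 in kidney, 4.70 in VAT, 0.435 in SCAT, 0 in BAT, 0 in muscle and 0.0755 in cortex. This is the locus on the strand opposite to its annotation, and the one on the annotated strand had 183 in liver and at most 1.46 elsewhere. C4bp, its plasma cofactor, had 259 in liver, 0.0104 in kidney, 66.3 in VAT, 0.0248 in SCAT, 0 in BAT, 0.193 in muscle and 0.221 in cortex. Its VAT level was 25.6% of liver, while the hepatocyte markers in VAT did not exceed 2.29%, and VAT was also the library with epididymis markers, whose part in this value was not tested. Without the VAT library, C4bp would count as enriched in liver.

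The remaining 3 regulators were enriched in no tissue. Cfp, properdin, which stabilises the C3 convertase, had 9.56 FPKM in liver, 0.382 in kidney, 11.3 in VAT, 16.1 in SCAT, 5.37 in BAT, 4.39 in muscle and 0.922 in cortex. Cd55, a membrane protein that breaks up convertases, had 6.38, 3.88, 10.5, 33.3, 2.75, 35.9 and 1.27 in the same order, with SCAT and muscle close together and changing places under scaling. Cd59a, which blocks assembly of the membrane attack complex, had 22.6, 6.02, 17.6, 9.52, 29.1, 17.4 and 0.988, and its BAT and liver values differed by only 0.36 on the log2 scale. Cortex was lowest for Cd55 and Cd59a.

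Anticoagulants had mixed sources. Proc, protein C, had 110 FPKM in liver, 20.6 in kidney, 0.949 in VAT, 0.0156 in SCAT, 0 in BAT, 0.0201 in muscle and 0.00473 in cortex. Pros1, its cofactor protein S, had 18.8, 4.85, 11.6, 7.83, 5.98, 6.79 and 2.44 and was above 1 FPKM in every tissue. Tfpi, the inhibitor of tissue factor, had 3.17, 2.46, 3.80, 4.24, 3.05, 1.66 and 0.943, a range of 2.06 on the log2(FPKM + 0.1) scale. Thbd, thrombomodulin, had 0.0113, 0.0159, 0.0772, 0.0272, 0.220, 0.0702 and 4.17. A locus over the same gene on the other strand, named Sstr4, was listed at 0.745, 3.92, 7.71, 3.20, 6.39, 4.72 and 0.544, so it cannot be told which of these values belong to Thbd, and its enrichment in cortex rests on the name alone.

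In fibrinolysis, 2 of 4 members were enriched in liver and Plau in kidney. Plg, plasminogen, had 410 FPKM in liver, 0.114 in kidney, 2.84 in VAT, 0.0462 in SCAT, 0 in BAT, 0.158 in muscle and 0.0268 in cortex. Cpb2, which protects fibrin from plasmin, had 140 in liver and at most 1.35 elsewhere. Plau, the urokinase that activates plasminogen, had 1.22 in liver, 113 in kidney, 22.1 in VAT, 4.29 in SCAT, 6.72 in BAT, 15.4 in muscle and 0.480 in cortex, which put kidney 2.35 above VAT on the log2(FPKM + 0.1) scale. Plat, the tissue-type activator, had 0.210 in liver, 17.4 in kidney, 6.72 in VAT, 2.89 in SCAT, 2.73 in BAT, 4.09 in muscle and 9.45 in cortex. Kidney was the highest tissue for both activators, and only in cortex was Plat above Plau.

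**Figure D2:**
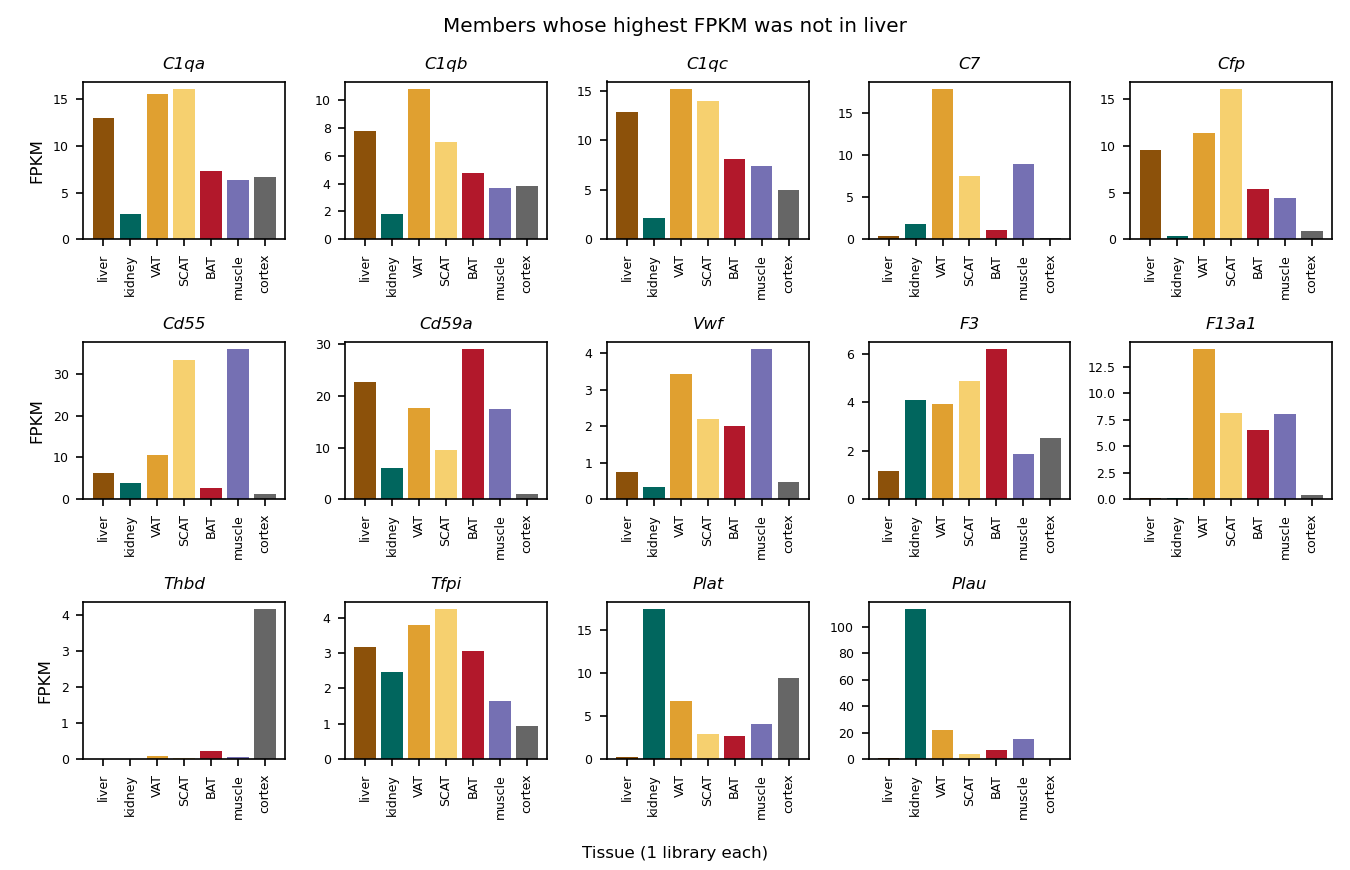
FPKM (y axes, from 0) in 7 tissues (x axes, 1 bar per library) for the 14 members whose highest value was not in liver. F13a1 is near 0 in liver and kidney, Plau and Plat are highest in kidney, and Cd55 is highest in muscle and SCAT.

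The kidney share of the liver FPKM was 37.9% for F13b, 18.7% for Proc, 11.3% for C1ra, 6.50% for C8g, 4.35% for Masp2, 3.62% for C1s1 and 2.68% for C8a. It was the second tissue for 5 of the 30 liver-enriched members, against 25.9% of all 506 liver-enriched genes. In kidney the 9 usable hepatocyte markers had a median of 0.0157% of liver and a maximum of 1.31% (Ttr). Without the kidney library, F13b would count as enriched in liver. For 7 of the 30 liver-enriched members the kidney share was above every hepatocyte marker (C1ra, C1s1, Masp2, C8a, C8g, F5 and Proc, of which C1ra and Masp2 rest on shared loci), against 46.2% of the 506 genes. This count rests on Ttr, since the next marker had 0.340%, and without Ttr it was 14 of 30, against 60.5%.

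**Figure D3:**
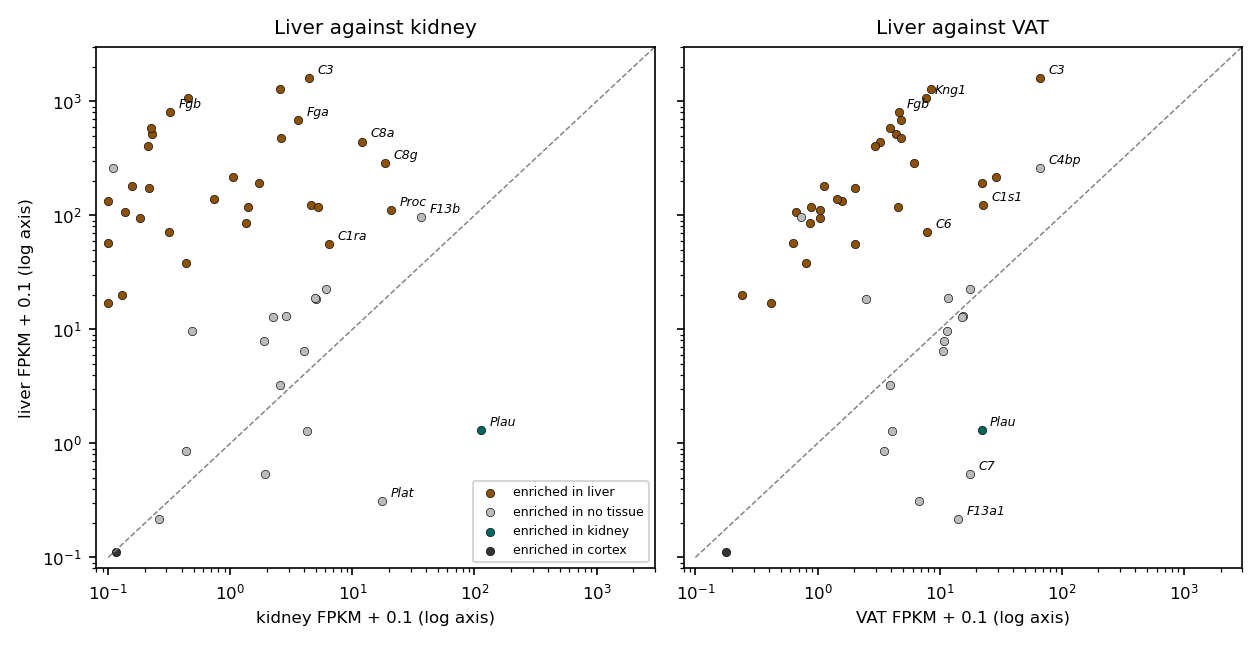
FPKM + 0.1 in liver (y axes) against kidney (left) and VAT (right) for 48 members, on log axes, with the line of equal values dashed. In kidney the members scatter over several orders of magnitude, with Plau and Plat under the line, whereas in VAT most liver-enriched members lie on a band parallel to the line, with C4bp, C3, C1s1 and C6 to its right.

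In VAT, many liver-enriched members were detected at a low level. It was the second tissue for 18 of the 30 liver-enriched members, and for 45.7% of all 506 liver-enriched protein-coding genes. The median member stood at 0.944% of its liver level in VAT, and 20 of 30 lay within the range of the 9 hepatocyte markers, 0.585% to 2.29% with a median of 0.701%. Over all 506 liver-enriched genes the median was 1.91%, and 46.0% lay within this range. Fga (0.691%), Fgg (0.659%), F2 (0.664%), Plg (0.693%) and Kng1 (0.720%) are examples, and Fgb (0.559%) lay just under the range. The part of hepatocyte RNA in these values was not tested.

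Above the hepatocyte markers in VAT stood C1ra (3.43%), C1s1 (18.4%), Masp2 (3.78%), C3 (4.14%), C4b (13.1%), C6 (11%) and Klkb1 (11.4%), of which C1ra, Masp2 and Klkb1 rest on shared loci. These are 7 of 30, against 44.7% of all 506 liver-enriched genes. SCAT, in which the markers reached at most 0.0241% of liver, had C1s1 at 21.2%, C4b at 16.9%, C3 at 6.24% and C6 at 5.03%. In BAT, with markers up to 0.0853%, C1s1 was at 10.4% and C3 at 5.08%, but C6 only at 0.105%. In muscle, with markers up to 0.0654%, C1s1 had 10.9%, C4b 4.27% and C3 1.86%. In all, 18 of the 30 members exceeded every marker in SCAT, 11 in BAT and 15 in muscle, against 69.6%, 57.3% and 60.1% of all 506 liver-enriched genes, so that exceeding the markers is nothing particular to these members. Some of the 18 were very low in SCAT, such as Mbl1 with 0.0508 FPKM. In cortex Masp1 alone did so (6.55%), against 14.6% of the 506 genes, and the marker Ttr had 5.52% there. Without Ttr the markers reached 0.0163% in cortex, and 17 of 30 members exceeded them, against 70.9%.

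**Figure D4:**
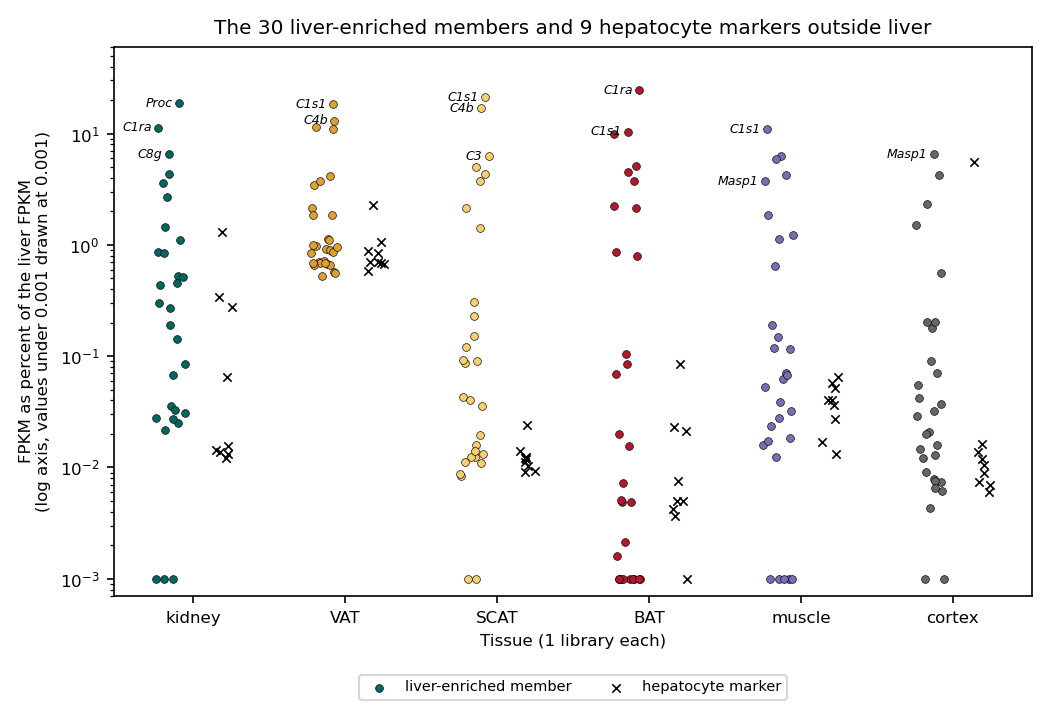
FPKM as percent of liver (log axis) for the 30 liver-enriched members (circles) and 9 hepatocyte markers (crosses) in 6 tissues, with values near 0 drawn at the lower edge. In VAT most members share the markers' band near 0.7%, and in SCAT, BAT and muscle C1s1 is among the highest members, far above the markers.

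Further genes of the same systems were looked up from lists of 30 complement and 36 coagulation genes. Of the complement genes 9 were enriched in liver, 1 elsewhere and 20 nowhere, and of the coagulation genes 9, 2 and 25. The highest liver levels were those of Hrg, histidine-rich glycoprotein, with 1436 FPKM, Serpinc1, antithrombin, with 853, and Vtn, vitronectin, with 846, and none of them exceeded 9.59 FPKM elsewhere. The 3 enriched elsewhere were Cr2, a complement receptor of B cells, in SCAT (19.1 FPKM, next 1.30), where lymphocyte markers were also found, Thbs1, a platelet adhesion protein, in VAT (34.2, next 7.53), and Gp1bb in cortex (55.5) at a locus shared with Sept5.

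Some genes of these lists were singled out after their values were seen. Cfd, adipsin, the protease that cuts factor B and a known product of fat cells, had 1.17 FPKM in liver, 20.4 in kidney, 1963 in VAT, 2241 in SCAT, 336 in BAT, 237 in muscle and 3.50 in cortex. It was 29.8 times C3 in VAT and 22.5 times C3 in SCAT, though it missed the rule for fat because muscle was close to BAT. Adipocyte markers were also present in the muscle library, and their part in the muscle values of Cfd, C3 and C1s1 was not tested. Kidney held 122 FPKM of Kng2 and 49.5 of Serpinf2, the inhibitor of plasmin, against 189 and 196 in liver, and BAT held 45.9 of Kng2.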

How the data were processed

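Ribosomal RNA-depleted, strand-specific libraries of 7 tissues, 1 per tissue, were analysed. According to the study's methods, the authors trimmed reads with flexbar, filtered rRNA with Bowtie2 2.2.9, aligned to mm10 (GRCm38, an Ensembl annotation) with STAR 2.6.0c, and assembled, merged and compared transcripts with Cufflinks 2.2.1 and Cuffdiff. The authors deposited a Cuffdiff table of FPKM for 94339 loci in 21 pairwise comparisons. Its library scaling is not given in the sources used here. Its fold changes, test statistics, p-values and q-values are the authors' own comparisons and were not used.

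Names were split on commas. Loci marked as failed in any comparison (151) were dropped, zeros marked as too low to test were missing (225 values, none of a member), and of several loci the one with the highest maximum was used. The hepatocyte marker Alb is missing in liver for this reason. The table has no strand column, so the strand of a locus was inferred from how loci are ordered. By this inference, 38 of 48 members used a locus on their annotated strand and 10 one on the other strand (C1qa, C1ra, Hc, C7, C8a, Cfi, F8, F10, Fga and Plau). Of the 50 names, 36 have several loci, mostly on opposite strands. Background genes were protein-coding names of GENCODE M21 (GRCm38). Only fold rules were used, and the script was tested on simulated data. The members, marker genes, lists and alternatives were chosen with earlier results of these data known. Values in all tissues are given for the member of each role group highest in liver, for members highest elsewhere and for subunits of complexes. Of the further genes, the 3 highest in liver and those enriched elsewhere are named. Alternatives covered pseudocount, minimum, scaling, locus choice, fold and left-out libraries. Promoter sequences are from RefSeq (GRCm38.p6). Python 3.11.15, pandas 2.3.3, NumPy 2.4.6 and matplotlib 3.10.9 were used.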

Additional observations from a re-analysis of the deposited data

How the results depend on the processing

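With 1 library per tissue, every value stands without a replicate, and depth is unknown, so small values carry an unknown counting error. No paired analysis was possible because each tissue has 1 library and the results come from no test. The count of 30 members enriched in liver ran from 26 (fold doubled) to 32 (2-fold rule, or failed loci kept, which adds C2 and Cfb). Median-ratio scaling gave 28, without C1s1 and C4b. A pseudocount of 1 (C1ra lost) and leaving out loci with several names (Masp2 lost) each gave 29. No member was higher in all 3 fat depots under any of the alternatives tried for this count. The 2 members enriched outside liver became 1 under median-ratio scaling and with the fold doubled (Plau lost) and with a minimum of 5 FPKM (Thbd lost).

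With a minimum of 5 FPKM, 9 members remained in kidney, 20 in VAT, 15 in SCAT, 13 in BAT, 13 in muscle and 4 in cortex. With loci on the annotated strand only, an alternative added after the data were seen, C1qa was 0.691 to 0.985 times C1qb and C8a 1.70 times C8b in liver (4.16 with the loci used). With loci summed, C1s1 was 1.27 times C1ra in liver (2.21 with the loci used). The locus taken defines these changes. The other 88 of 101 counts and ratios under alternatives stayed within 1.5 times the reported value. Of 240 recomputed log2 differences of single members between liver and the highest other tissue, 26 changed by more than a 1.5-fold change in the underlying ratio, with another pseudocount or under median-ratio scaling, and only that of F8 changed sign, from 0.54 to -0.07 under median-ratio scaling. The highest tissue changed under median-ratio scaling for Cd55, F8, Vwf and F3, and with loci summed or on the annotated strand for C1qa.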
